A study of Arabidopsis thaliana with 6 samples.

Results

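Transcripts of 34 genes that drive and carry out mitosis in Arabidopsis thaliana were followed in whole seedlings, comparing Col-0 with the line zdp-1 ape2-2. The genes were taken by locus identifier from the 33489 genes counted, as the A1, A2 and B-type cyclins, the B-type cyclin-dependent kinases and CKS2, the Aurora kinases and spindle genes, the checkpoint and anaphase genes, and the cytokinesis genes. There were 3 samples per genotype, each of polyadenylated RNA from seedlings grown for 14 days on plates. The labels give Col-0 as wild type and the other line, called the mutant here, as a knockout of ZDP and APE2. The products of these genes, a phosphatase of DNA 3' ends and a nuclease of abasic sites, clean up DNA ends left by base excision repair. No treatment is named for either group, and the labels do not say whether the samples of a group came from separate cultures, so p-values reflect the scatter of these samples alone, which can be technical.

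Entry into mitosis in plants depends on A-type and B-type cyclins that bind cyclin-dependent kinases, among them the plant-specific B-type kinases, whose transcripts peak late in the cycle. Aurora kinases and spindle proteins then order the chromosomes, the spindle checkpoint holds back anaphase, and the anaphase-promoting complex with its activator CDC20 destroys the cyclins and frees separase. Cytokinesis follows in the phragmoplast, where vesicles fuse into a cell plate. Many of these genes carry a promoter element with the core AACGG, bound by MYB3R transcription factors, some of which activate and some of which repress. In Arabidopsis, CYCB1;1 is also a known target of SOG1, the transcription factor of the DNA damage response. In a whole seedling only a small part of the cells divides, and a change in the number of dividing cells cannot be told apart from a change in RNA per cell.

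Library totals ran from 31190605 to 37241739 counts. In CPM, the read count as a share of the TMM-scaled library total, ZDP had 30.2, 27.8 and 30.1 in the Col-0 samples (always in the order A, B, C) and 18.5, 18.9 and 16.3 CPM in the mutant. APE2 had 7.20, 8.83 and 8.52 CPM in Col-0 and 5.67, 5.71 and 5.89 CPM in the mutant. Both targeted genes were lower in every mutant sample and were still counted. Exons of a gene on the opposite strand lie over 33.6% of the exon bases of APE2. The part of that gene in the APE2 counts was not tested. Markers of the labelled tissue were present, with the light-harvesting gene LHCB1.1 at a mean of 6880 CPM in Col-0 and 4767 CPM in the mutant, and the endodermis gene SCR at 30.8 CPM in Col-0.

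The 250 bases before the annotated start are shown for 5 of the genes, because their promoters differ in the MYB3R core and their transcripts differ in the direction called. The bases are from the TAIR10.1 reference of RefSeq, whose starts and ends are those of the deposited tables for all 34 genes. Each run is written 5′ to 3′ on the strand of the gene, and capitals mark AACGG or its reverse complement CCGTT.
CYCB1;1 (chr4:17624309-17624558, minus strand, higher in the mutant): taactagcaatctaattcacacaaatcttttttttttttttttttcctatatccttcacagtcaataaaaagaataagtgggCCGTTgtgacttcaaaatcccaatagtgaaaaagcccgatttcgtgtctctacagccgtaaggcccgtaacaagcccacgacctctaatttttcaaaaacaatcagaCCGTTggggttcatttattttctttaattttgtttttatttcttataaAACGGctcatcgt
CYCB1;2 (chr5:1861704-1861953, minus strand, lower by its own count): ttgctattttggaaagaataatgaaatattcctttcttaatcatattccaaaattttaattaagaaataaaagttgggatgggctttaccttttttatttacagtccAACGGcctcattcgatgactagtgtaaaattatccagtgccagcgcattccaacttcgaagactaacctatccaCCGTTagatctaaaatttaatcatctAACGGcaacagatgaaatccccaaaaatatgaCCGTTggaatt
CYCB1;3 (chr3:3627274-3627523, minus strand, higher): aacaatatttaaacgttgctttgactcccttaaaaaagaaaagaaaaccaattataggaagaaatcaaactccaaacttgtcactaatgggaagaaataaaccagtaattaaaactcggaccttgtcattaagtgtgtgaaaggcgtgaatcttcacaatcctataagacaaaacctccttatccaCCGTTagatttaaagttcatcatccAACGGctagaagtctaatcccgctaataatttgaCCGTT
CDKB1;1 (chr3:20059421-20059670, plus strand, higher): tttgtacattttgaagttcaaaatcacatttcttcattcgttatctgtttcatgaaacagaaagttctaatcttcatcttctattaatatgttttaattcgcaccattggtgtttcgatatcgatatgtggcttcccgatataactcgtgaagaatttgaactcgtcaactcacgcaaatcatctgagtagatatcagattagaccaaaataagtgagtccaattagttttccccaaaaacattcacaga
KNOLLE (chr1:2711001-2711250, minus strand, lower): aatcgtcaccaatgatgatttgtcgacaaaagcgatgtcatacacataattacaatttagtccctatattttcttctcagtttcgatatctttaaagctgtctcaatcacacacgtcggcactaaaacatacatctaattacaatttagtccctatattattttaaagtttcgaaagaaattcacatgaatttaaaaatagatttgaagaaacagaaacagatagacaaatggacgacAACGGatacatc

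The core AACGG, searched on both strands, was found before 19 of the 34 mitotic genes (55.9%), against 5651 of 27443 protein-coding genes (20.6%). There were 2 or more matches before 11 of the mitotic genes (32.4%), against 3.62% of all promoters. CYCB1;2 had 4 matches, and CYCB1;1, CYCB1;3, CYCB2;1, CYCB2;2 and CYCB2;3 had 3 each. Among the 15 genes with none in this window were CYCB1;4, CKS2 and both CDKB1 genes. The motif bound by SOG1, CTT and AAG with any 7 bases between them, reads the same on both strands. It was found before 4 of the 34 (11.8%) and before 9.71% of all promoters. The promoter of CYCB1;1 was not among them. A match is a stretch of letters, not a measured binding site.

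**Figure D1:**
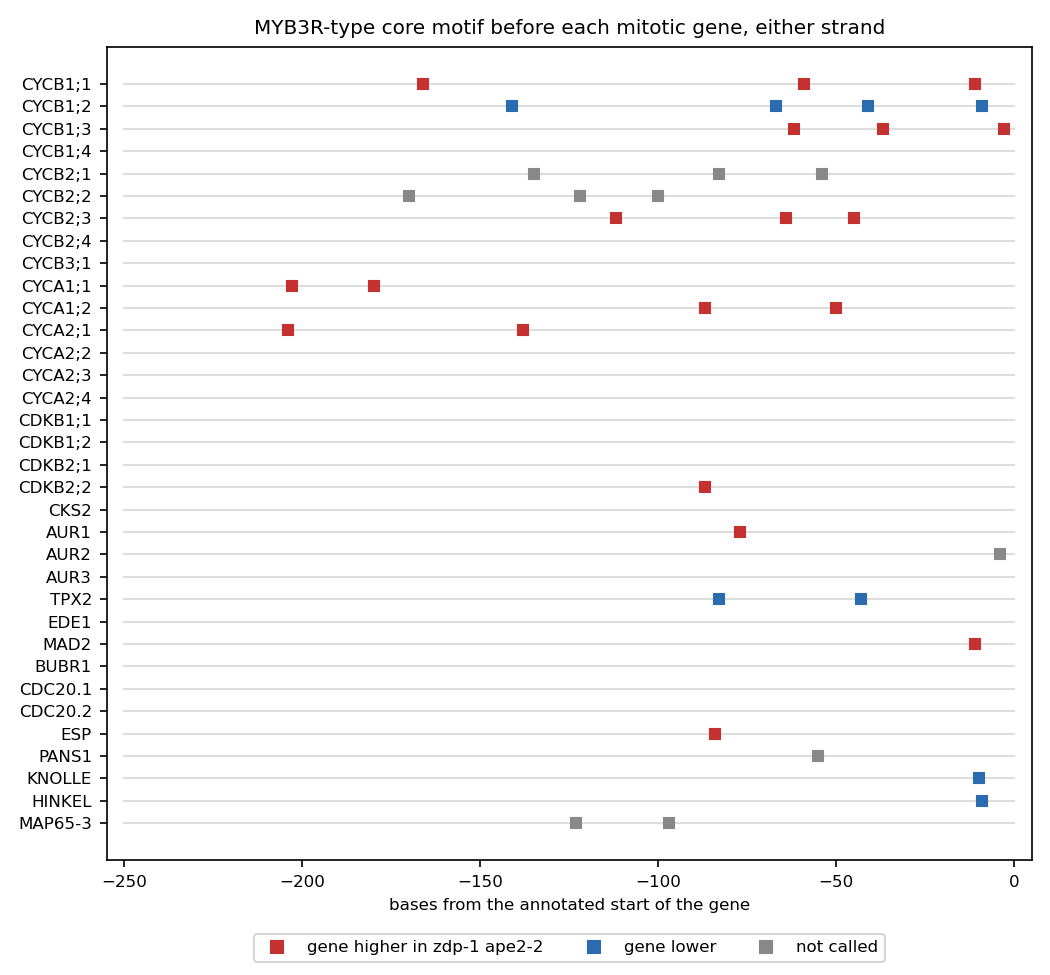
Positions of the MYB3R-type core motif AACGG on either strand in the 250 bases before each of the 34 genes, by distance in bases from the annotated start. Colour gives the call of the gene in zdp-1 ape2-2 (higher, lower or not called), and squares of every colour are seen. There are 4 squares before CYCB1;2, which was lower by its own count alone (log2 fold change -0.15, and -0.00 when summed with its copy CYCB1;5). The higher gene CDKB1;1 has none.

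All 34 genes passed the filter on low counts. By edgeR's quasi-likelihood test at a Benjamini-Hochberg adjusted p below 0.05 over all 21182 genes tested, 24 were called, 19 higher in the mutant and 5 lower. Of all genes tested 43.4% were called, 22.2% higher and 21.2% lower. The higher numbered 15 to 19 when 1 library was left out, and the lower numbered 3 without Col-0 replicate A and 2 without mutant replicate B. The median log2 fold change, mutant over Col-0, was 0.18 over the mitotic genes and 0.00 over all genes tested. Most of the differences were small. Of the 34 mitotic genes, 11 were called and rose by at least 1.2-fold and none fell by that much, against 11.9% and 7.06% of all genes tested. These 11 were part of 19 higher calls, against 2519 of the 4699 higher calls over all genes. The CPM of the 34 genes summed to 625.1 to 655.5 over the Col-0 libraries and to 685.0 to 694.5 over the mutant libraries, without overlap. Taken singly, the mutant samples lay wholly above Col-0 for 17 genes and wholly below for 5, against 25.5% and 24.8% (50.3% in all) of the genes tested.

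**Figure D2:**
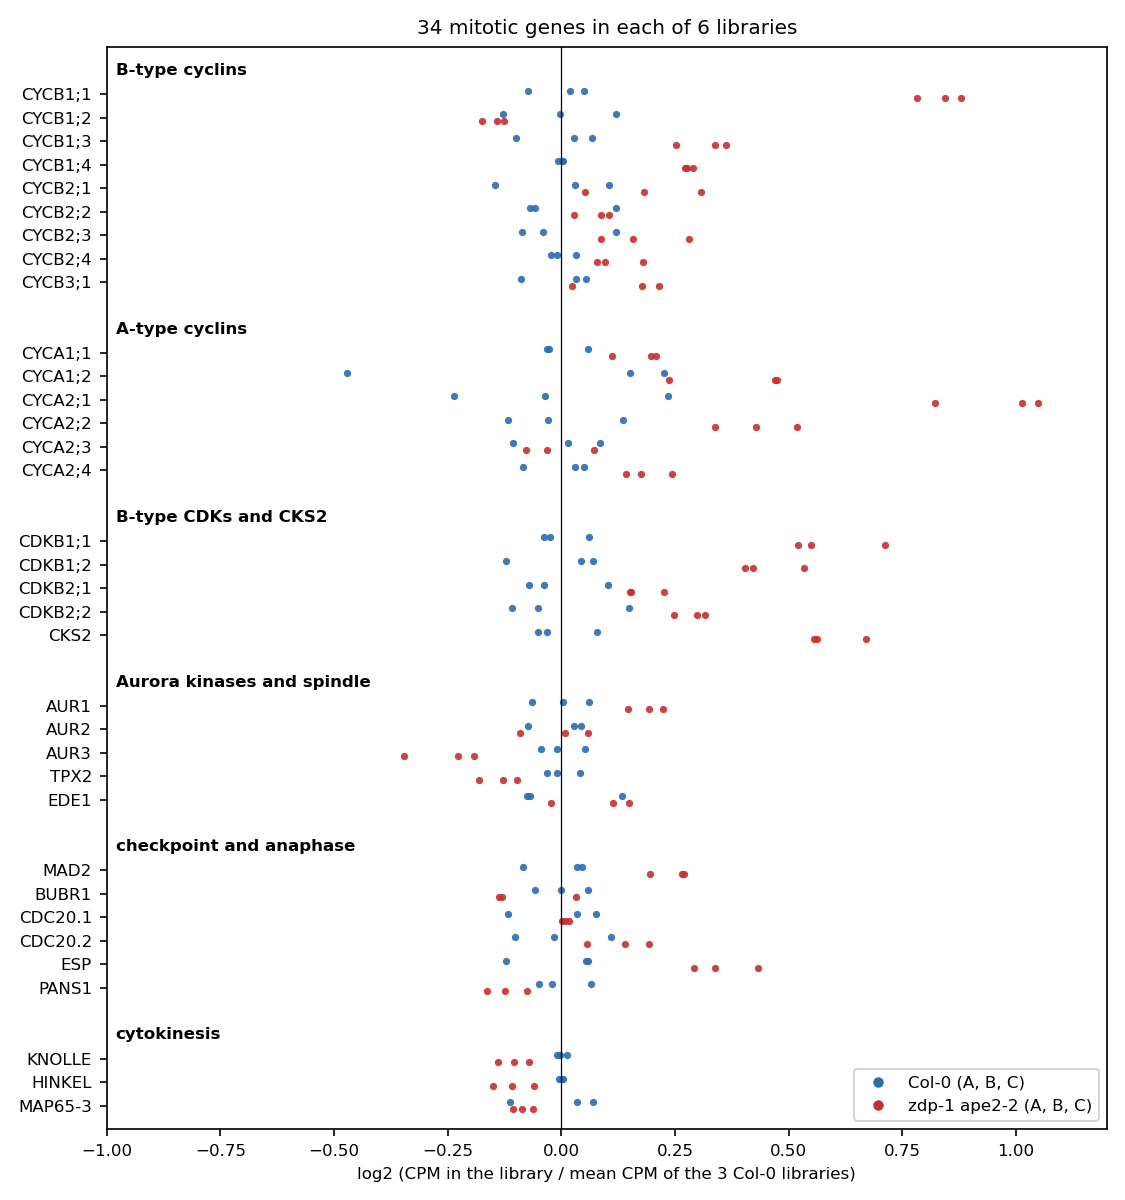
Each point is 1 library, as the log2 ratio of its CPM to the mean of the 3 Col-0 libraries, for the 34 genes by role. The kinase genes and CKS2 lie to the right in all mutant libraries, KNOLLE and HINKEL slightly to the left, and CYCB1;2 overlaps between genotypes.

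Transcript levels per exon length spanned a wide range. In TPM, a level per exon length, the syntaxin gene KNOLLE stood highest in Col-0 at 63.9 ± 0.57 (SD, n = 3), followed by CKS2 at 43.7 ± 2.08, CDKB2;1 at 39.2 ± 2.56, CDC20.1 at 38.8 ± 2.73 and CYCB1;2 at 34.9 ± 3.03. The samples of the last 3 of these overlapped. The lowest were the cyclin genes CYCA1;2 at 1.38 ± 0.33 TPM and CYCA2;1 at 1.19 ± 0.19 TPM, whose samples overlapped too. In the mutant CKS2 stood at 69.6 ± 3.01 TPM and KNOLLE at 62.5 ± 1.48 TPM, so that the order of these genes was reversed. Exons of NPQ1, a gene on the opposite strand with 81.2 TPM in Col-0, lie over 33.5% of the exon bases of KNOLLE. The part of NPQ1 in the KNOLLE counts was not tested, so the rank of KNOLLE and the reversal are uncertain.

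Among the 9 B-type cyclins, the main partners of the kinases at the entry into mitosis, 5 rose and 1 was lower, around a median log2 fold change of 0.18. That is 66.7% called, against 43.4% of all genes tested (22.2% higher and 21.2% lower). CYCB1;1 (AT4G37490, chromosome 4, 17621886 to 17624308) had 13.0, 13.8 and 14.1 CPM in Col-0 and 25.1, 23.5 and 24.5 CPM in the mutant. Every mutant sample lay far above every Col-0 sample, a 1.79-fold rise with a log2 fold change of 0.84 ± 0.05 (SE) and an edgeR adjusted p of 5.31e-17. CYCB1;4 (AT2G26760) had 19.8, 19.8 and 19.6 CPM in Col-0 and 24.1, 23.9 and 23.9 CPM in the mutant, with tight samples in both groups and no overlap (log2 fold change 0.28 ± 0.05, edgeR adjusted p = 2.37e-06). CYCB1;3 (AT3G11520) had 12.7, 11.4 and 12.4 CPM in Col-0 and 15.4, 14.5 and 15.6 CPM in the mutant, again without overlap (0.32 ± 0.06, edgeR adjusted p = 1.82e-05).

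CYCB1;2 (AT5G06150, chromosome 5, 1859279 to 1861703) was the cyclin that was lower by its own count, and its sum with a copy was not called. Col-0 had 42.5, 39.0 and 35.8 CPM and the mutant 34.7, 35.5 and 35.8 CPM. The groups touch, since Col-0 replicate C lies at the level of the mutant, and the log2 fold change was -0.15 ± 0.04 (edgeR adjusted p = 0.00385). Without Col-0 replicate A it was -0.09 (edgeR adjusted p = 0.110). Over 54.8% of its exon bases there is a copy of 93.8% identity in CYCB1;5 (AT1G34460, chromosome 1, 12595110 to 12602379), a related cyclin gene that was named after its values were seen. CYCB1;5 had 0.997, 1.15 and 1.08 CPM in Col-0 and 4.62, 5.36 and 4.91 CPM in the mutant, a 4.60-fold rise (log2 fold change 2.20 ± 0.13, edgeR adjusted p = 4.08e-17). Together they summed to 43.5, 40.2 and 36.9 CPM in Col-0 and 39.3, 40.8 and 40.7 CPM in the mutant. Refitted as 1 gene they gave a log2 fold change of -0.00 ± 0.04 with an approximate 95% interval of -0.08 to 0.08 (edgeR adjusted p = 0.991). The sum also holds the rise of CYCB1;5 itself, so it cannot show whether the call of CYCB1;2 is wrong. Whether reads were shared between these copies was not tested, so neither the decrease of the one nor the rise of the other is certain.

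**Figure D3:**
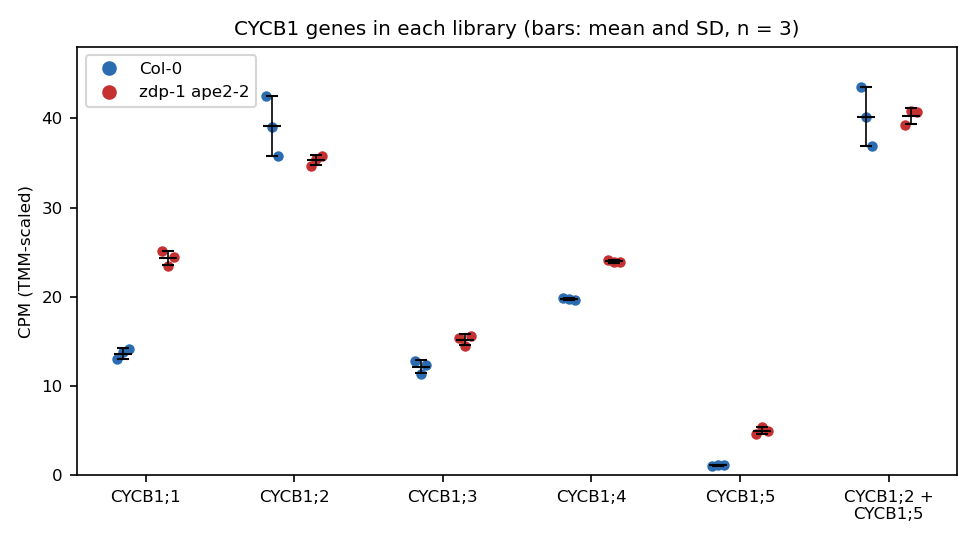
TMM-scaled CPM of the CYCB1 genes in each library, with mean and SD (n = 3), and the sum of CYCB1;2 with its copy CYCB1;5. The sum on the right has means of 40.2 CPM in Col-0 and 40.3 CPM in the mutant.

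The shares within the CYCB1 family use the count of CYCB1;2 as deposited and leave out CYCB1;5, so the same uncertainty holds for them. Per exon length, CYCB1;1 made up 16.0%, 17.8% and 18.6% of the summed TPM of the 4 listed members in the Col-0 samples and 27.1%, 25.9% and 26.3% in the mutant samples. CYCB1;2 made up 46.8%, 45.0% and 42.1% in Col-0 and 33.4%, 34.9% and 34.3% in the mutant. Neither share overlapped between genotypes. No test was made of shares, for which an exact two-sided permutation test of 3 against 3 samples cannot give a p below 0.1. The shares of CYCB1;3 (15.3 ± 0.85% and 16.2 ± 0.41%, SD, n = 3) and CYCB1;4 (22.6 ± 0.70% and 23.2 ± 0.29%) differed by about their spread. In the CYCB2 family the calls were weak: CYCB2;3 at a log2 fold change of 0.18 ± 0.06 (edgeR adjusted p = 0.0125) and CYCB2;4 at 0.12 ± 0.05 (edgeR adjusted p = 0.0408) were called higher, and both calls were lost with DESeq2 (adjusted p = 0.0880 and 0.196). The first call was also lost without Col-0 replicate B or without mutant replicate A, and the second without any 1 of Col-0 replicates B and C and mutant replicates B and C, and with no filter on low counts. CYCB2;1 (0.19), CYCB2;2 (0.07) and CYCB3;1 (0.14) did not pass.

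Of the 6 A-type cyclins, which act from S phase to mitosis, 5 were higher and none lower, and the median log2 fold change was 0.30. The share called, 83.3%, stood against 43.4% of all genes tested. CYCA2;1 (AT5G25380) had 1.39, 1.21 and 1.67 CPM in Col-0 and 2.94, 2.87 and 2.51 CPM in the mutant. It rested on 145 Col-0 counts and 316 mutant counts, and the groups did not overlap. Its log2 fold change of 0.98 ± 0.15 (edgeR adjusted p = 5.64e-07), a 1.97-fold rise, had the highest estimate of the 34 genes, with an approximate 95% interval of 0.69 to 1.26 that holds the estimate for CYCB1;1. CYCA2;2 (AT5G11300) had 5.35, 4.77 and 4.49 CPM in Col-0 and 6.98, 6.15 and 6.55 CPM in the mutant, without overlap (0.42 ± 0.09, edgeR adjusted p = 0.000120). CYCA1;1 (AT1G44110), the A-type cyclin with the highest TPM, had 21.6, 21.6 and 23.0 CPM in Col-0 and 25.5, 25.3 and 23.8 CPM in the mutant. Its smallest mutant value stood just above the largest Col-0 value (0.18 ± 0.05, edgeR adjusted p = 0.00169).

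The other A-type cyclins gave less. CYCA2;3 (AT1G15570), in Arabidopsis a brake on the endocycle, made up 51.1 ± 1.73% of the summed TPM of the CYCA2 genes in Col-0 and 45.1 ± 1.67% in the mutant (SD, n = 3), and its own log2 fold change of -0.01 ± 0.05 did not pass. CYCA2;4 (0.18 ± 0.06, edgeR adjusted p = 0.0142) lost its call with DESeq2 (adjusted p = 0.105), without Col-0 replicate C and without mutant replicate B. CYCA1;2, known as TAM and for its part in meiosis, had 149 and 219 counts and a log2 fold change of 0.41 ± 0.17 (edgeR adjusted p = 0.0427). Without Col-0 replicate A, which had the lowest value at 1.05 CPM, the log2 fold change was 0.21 (edgeR adjusted p = 0.346), and the call was also lost without mutant replicate A or B and with DESeq2.

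Against 22.2% of all genes tested, all 4 B-type kinase genes and CKS2 were higher. They kept this call in each alternative fit, but CDKB2;1, at 1.13-fold, does not reach a fold of 1.2. CKS2 (AT2G27970), which encodes a small subunit that docks on cyclin-dependent kinases, had 19.8, 20.0 and 21.6 CPM in Col-0 and 30.2, 30.1 and 32.6 CPM in the mutant. CDKB1;1 (AT3G54180, chromosome 3, 20059671 to 20061488) had 12.2, 11.4 and 11.5 CPM in Col-0 and 19.2, 17.1 and 16.8 CPM in the mutant. CDKB1;2 (AT2G38620) had 7.56, 6.75 and 7.71 CPM in Col-0 and 10.6, 9.70 and 9.83 CPM in the mutant. None of the 3 genes overlapped between genotypes. CKS2 rose 1.52-fold (log2 fold change 0.60 ± 0.05, edgeR adjusted p = 5.33e-14), CDKB1;1 1.51-fold (0.59 ± 0.06, edgeR adjusted p = 4.73e-11) and CDKB1;2 1.37-fold (0.46 ± 0.07, edgeR adjusted p = 1.54e-06). Exons of a gene on the same strand lie over 8.79% of the exon bases of CKS2. The part of that gene in the CKS2 counts was not tested.

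The CDKB2 genes, whose transcripts are known to be restricted to the end of the cycle, rose by smaller estimates. CDKB2;1 (AT1G76540) had a log2 fold change of 0.18 ± 0.04 (approximate 95% interval 0.09 to 0.26, edgeR adjusted p = 0.000619) and CDKB2;2 (AT1G20930) one of 0.28 ± 0.05 (0.18 to 0.39, edgeR adjusted p = 4.60e-05). The intervals of the CDKB1 genes, in the same order, were 0.48 to 0.71 and 0.32 to 0.60. The difference between the families was not tested. Within each pair the proportions moved little: the first gene made up 64.0 ± 1.45% of the CDKB1 TPM in Col-0 and 66.2 ± 0.61% in the mutant, and 67.5 ± 0.93% and 65.7 ± 0.75% of the CDKB2 TPM (SD, n = 3). Exons of a gene on the opposite strand lie over 18.3% of the exon bases of the second CDKB1 gene and 13.8% of those of the second CDKB2 gene. Copies of at least 90% identity cover 20.4% and 20.0% of the CDKB2 genes, in order.

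**Figure D4:**
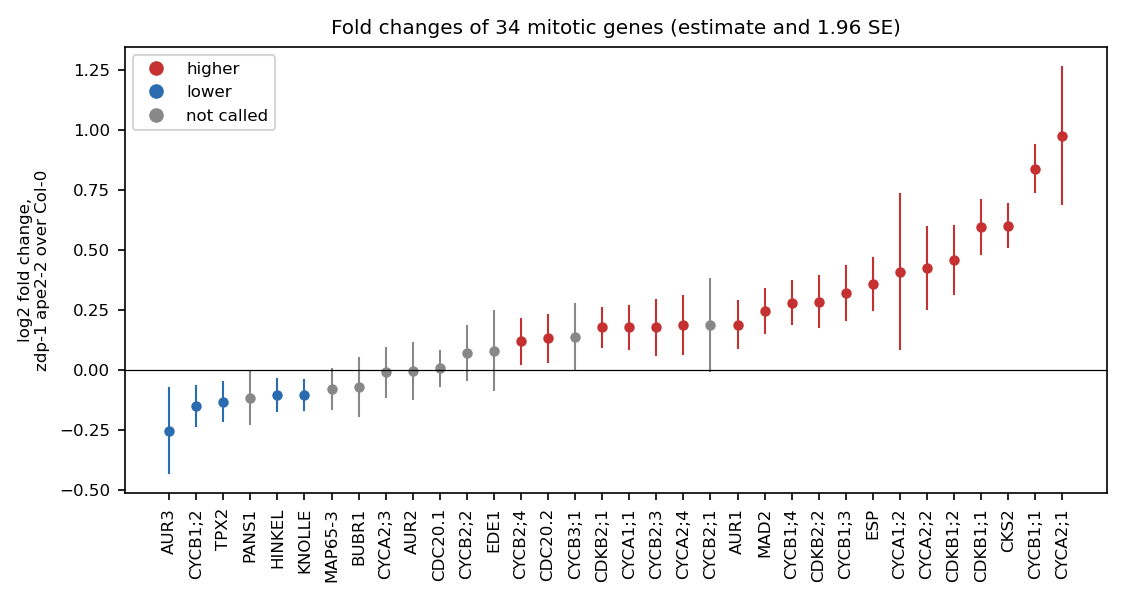
Log2 fold change (zdp-1 ape2-2 over Col-0) of the 34 genes in rising order, with an approximate 95% interval from the standard error. The lower calls at the left reach -0.25, in AUR3, and the higher calls at the right reach 0.98, in CYCA2;1.

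The Aurora and spindle genes did not move together: of 5, 1 was higher and 2 were lower, around a median log2 fold change of -0.005. With so few genes, the share called was 60%, against 43.4% of all genes tested. AUR1 (AT4G32830), an Aurora kinase of the spindle and the cell plate, had 17.6, 16.2 and 17.0 CPM in Col-0 and 19.3, 18.7 and 19.8 CPM in the mutant, without overlap (0.19 ± 0.05, edgeR adjusted p = 0.00235). AUR3 (AT2G45490), the Aurora kinase found at centromeres, had 5.54, 5.18 and 5.31 CPM in Col-0 and 4.56, 4.21 and 4.68 CPM in the mutant. All mutant values of AUR3 were below all Col-0 values (-0.25 ± 0.09, edgeR adjusted p = 0.0212). TPX2 (AT1G03780), which encodes a spindle assembly factor and Aurora activator, had 29.99, 29.5 and 31.1 CPM in Col-0 and 26.6, 28.2 and 27.6 CPM in the mutant, lower in each sample (-0.13 ± 0.04, edgeR adjusted p = 0.00780).

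The call of AUR3 was lost with DESeq2 (adjusted p = 0.132), without Col-0 replicate A and without mutant replicate B, and that of TPX2 without mutant replicate A. AUR1 made up 53.3 ± 1.26% of the TPM of the 3 Aurora genes in Col-0 and 58.5 ± 0.66% in the mutant, and AUR3 21.1 ± 0.34% and 17.0 ± 0.31%. AUR2 (-0.005 ± 0.06) and EDE1, a microtubule-associated protein gene (0.08 ± 0.08), did not pass. Exons of a gene on the opposite strand lie over 36.9% of the exon bases of AUR2, 19.2% of AUR1 and 10.4% of AUR3.

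Of the 6 checkpoint and anaphase genes, 3 were higher and none lower. The share called, 50%, was near the 43.4% of all genes tested, of which 22.2% were higher and 21.2% lower. ESP (AT4G22970), which encodes separase, the protease that opens the cohesin ring, had 13.2, 14.97 and 14.9 CPM in Col-0 and 18.2, 19.4 and 17.6 CPM in the mutant. MAD2 (AT3G25980), the checkpoint protein that restrains CDC20, had 20.7, 19.0 and 20.6 CPM in Col-0 and 24.1, 23.0 and 24.2 CPM in the mutant. Neither gene overlapped between genotypes, and the log2 fold changes were 0.36 ± 0.06 for ESP (edgeR adjusted p = 1.25e-06) and 0.25 ± 0.05 for MAD2 (edgeR adjusted p = 4.66e-05). BUBR1, a second checkpoint gene (-0.07 ± 0.06), and PANS1, which guards cohesion of the chromatids (-0.12 ± 0.06, edgeR adjusted p = 0.0937), did not pass.

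CDC20.1 and CDC20.2, neighbouring genes that share 98.7% identity over 1131 aligned bases, are activators of the anaphase-promoting complex. CDC20.1 (AT4G33270) had 52.6, 51.1 and 46.0 CPM in Col-0 and 49.99, 50.5 and 50.2 CPM in the mutant, which fall inside the range of Col-0 (log2 fold change 0.01 ± 0.04). CDC20.2 (AT4G33260) had 24.0, 20.8 and 22.0 CPM in Col-0 and 24.6, 25.5 and 23.2 CPM in the mutant, with overlap (0.13 ± 0.05, edgeR adjusted p = 0.0303), a call lost with DESeq2 (adjusted p = 0.149) and without any 1 of Col-0 replicates B and C and mutant replicates A and B. As the split of reads between the copies is uncertain, both were also refitted as 1 gene, which gave 0.05 ± 0.03 with an approximate 95% interval of -0.02 to 0.11 (edgeR adjusted p = 0.276).

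None of the 3 cytokinesis genes rose, and 66.7% were called lower, against 21.2% of all genes tested. KNOLLE (AT1G08560, chromosome 1, 2709525 to 2711000), the syntaxin of cell plate fusion, had 54.0, 54.8 and 54.2 CPM in Col-0 and 50.6, 49.4 and 51.8 CPM in the mutant. HINKEL (AT1G18370), a kinesin of the phragmoplast, had 52.4, 52.1 and 52.3 CPM in Col-0 and 48.5, 47.1 and 50.1 CPM in the mutant. Both were lower in all mutant samples by about the same small amount, with log2 fold changes of -0.10 ± 0.03 (edgeR adjusted p = 0.00795) and -0.11 ± 0.03 (edgeR adjusted p = 0.00870). MAP65-3, which bundles microtubules at the midline of the phragmoplast, had -0.08 ± 0.04 and did not pass (edgeR adjusted p = 0.123).

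These decreases depend on how libraries are scaled. With library totals alone, a scaling under which the median log2 fold change of all genes was 0.07, KNOLLE, HINKEL, TPX2, AUR3 and CYCB1;2 kept their sign but none passed, while 21 of the 34 mitotic genes were higher. KNOLLE and HINKEL also lost their calls without mutant replicate B (edgeR adjusted p = 0.0512 and 0.0649). Exons of NPQ1, on the opposite strand, lie over 33.5% of the exon bases of KNOLLE. NPQ1, a violaxanthin de-epoxidase gene of the chloroplast, had a log2 fold change of -0.30 ± 0.03, and its part in the count of KNOLLE was not tested.

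Genes that were higher and genes that were lower were found among those with and without AACGG. Of the 15 mitotic genes with no match, 9 were higher and 1 lower, around a median log2 fold change of 0.14. Of the 8 with 1 match 4 were higher and 2 lower (median 0.09), and of the 11 with 2 or more 6 were higher and 2 lower (median 0.18). Over all genes tested, the medians were 0.00 in each of these classes. With no match, 3601 of 16093 genes were higher and 3443 lower. With 1 match, 822 of 3631 were higher and 807 lower, and with 2 or more, 183 of 819 were higher and 191 lower. The promoters printed above were chosen to differ in the core and in the direction called. Among them, that of CYCB1;1 holds 3 matches and that of CDKB1;1 none, and both genes rose. That of CYCB1;2 holds 4, beside a decrease that is not certain. These counts are a description of sequence and were not tested.

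Other genes of the same machinery were read from lists of cell cycle genes. Of 19 further phragmoplast and cytokinesis genes 7 were higher and 2 lower (median log2 fold change 0.02), and the share called, 47.4%, was close to the 43.4% of all genes tested. By direction, 36.8% were higher and 10.5% lower, against 22.2% and 21.2% of all genes tested. The MAP kinase kinase gene MKK6, which acts downstream of HINKEL, rose by 0.49 ± 0.06 on the log2 scale, MAP65-4 by 0.35 ± 0.05 and SNAP33, a partner of KNOLLE, by 0.13 ± 0.03. The kinesin gene PAKRP1L fell by 0.14 ± 0.04 on the log2 scale and the microtubule bundler MAP65-1 fell by 0.12 ± 0.03. Of 12 tested spindle checkpoint and kinetochore genes 4 were higher and none lower (median 0.03), a share of 33.3% called, below that of all genes tested. The calls were all in the higher direction, in which 22.2% of all genes tested were called. Higher were, among others, BUB3.2 at 0.50 ± 0.09, KNL2 at 0.36 ± 0.09 and CENP-C at 0.18 ± 0.04.

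Of 15 genes of the anaphase-promoting complex and its regulators 6 were higher and 1 lower (median 0.07, 46.7% called). GIG1, an inhibitor of the complex that keeps mitotic cyclins stable, rose by 0.44 ± 0.07 on the log2 scale, while the ubiquitin-conjugating enzyme gene UBC20 rose by 0.20 ± 0.03, the subunit gene APC6 by 0.29 ± 0.06, and the subunit gene APC10 fell by 0.19 ± 0.05. Of 11 condensin and cohesin genes 5 were higher and 2 lower (median 0.09, 63.6% called). SYN2, a cohesin subunit gene known to respond to DNA damage, rose by 1.07 ± 0.06, and the condensin genes SMC2-1 and SMC2-2 rose by 0.33 ± 0.03 and 0.33 ± 0.05. The cohesin genes SMC3 and SYN4 each fell by 0.08 ± 0.03 on the log2 scale.

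Of 14 tested G1 and S-phase cyclin genes, CDKA;1 and CKS1, 8 were higher and 1 lower (median 0.17, 64.3% called). CYCA3;2, of S phase, rose by 0.34 ± 0.04 on the log2 scale, CYCD3;1, a cyclin of the cell cycle start, by 0.29 ± 0.04 and CYCD3;3 by 0.19 ± 0.05, while CYCD3;2 fell by 0.22 ± 0.03. CKS1, the paralog of CKS2, rose by 0.17 ± 0.05. Of 15 tested MYB3R, E2F and related regulators 6 were higher and 4 lower (median 0.09, 66.7% called). MYB3R4, an activator of mitotic genes, rose by 0.29 ± 0.05, the repressor E2FC by 0.44 ± 0.06 and the retinoblastoma gene RBR1 by 0.19 ± 0.03. SCL28, a GRAS factor of the G2 phase, fell by 0.16 ± 0.04 on the log2 scale, the atypical E2F gene DEL2 by 0.25 ± 0.09 and TSO1 by 0.09 ± 0.03. Of the other tested MYB3R genes, named after their values were seen, MYB3R3 had -0.16 ± 0.07 (edgeR adjusted p = 0.0476), while MYB3R1 (-0.04 ± 0.04) and MYB3R5 (-0.002 ± 0.09) did not pass.

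Tissue markers were read beside the mitotic genes, and the share called differed between these small lists. Over all genes tested it was 43.4%, with 22.2% higher and 21.2% lower. It was 100% for green tissue and for floral organs, 66.7% for shoot meristem and 55.6% for the stomatal lineage. For meiotic genes it was 28.6% and for root meristem 20%, both below that of all genes tested. All 3 genes of green tissue were lower in every mutant sample. LHCB1.1 had a log2 fold change of -0.53 ± 0.02 (edgeR adjusted p = 5.12e-22), LHB1B1, a second light-harvesting gene, -0.45 ± 0.02, and RBCS1A, a Rubisco small subunit gene, -0.26 ± 0.02. All 6 tested floral organ genes were higher, with SEP3 at a log2 fold change of 1.07 ± 0.06, PI at 2.77 ± 0.16 and AG at 2.17 ± 0.21, and the list's CPM summed to 10.2 to 10.6 over Col-0 samples and 26.1 to 26.8 over mutant samples. Of 6 tested shoot meristem genes 3 were higher and 1 lower. STM, the homeobox gene that maintains the meristem, had 1.03 ± 0.09 and CUC1 1.26 ± 0.23, CLV1 had -0.25 ± 0.03, and WUS and CLV3 had at most 9 counts per genotype. KNAT1, the third higher gene, had 0.23 ± 0.06. The summed CPM of that list was 94.2 to 98.0 for Col-0 and 87.9 to 91.5 in the mutant. CLV1 alone had means of 79.6 CPM in Col-0 and 66.8 CPM in the mutant, so that sum mainly follows CLV1. STM had means of 3.28 and 6.68 CPM, and KNAT1 11.2 and 13.1 CPM, in the same order. Of 5 root meristem genes 1 was higher, WOX5 at 0.41 ± 0.17 (edgeR adjusted p = 0.0459), with summed CPM of 47.4 to 49.8 and 47.0 to 51.4. Of 9 stomatal lineage genes 5 were lower and none higher, with FAMA at -0.74 ± 0.06, TMM at -0.46 ± 0.05 and SCRM2 at -0.26 ± 0.03, and summed CPM of 125.7 to 130.0 for Col-0 and 99.3 to 101.0 for the mutant. Of 7 meiotic genes 2 were higher, DMC1 at 0.50 ± 0.05 and ASY1 at 0.38 ± 0.16 (edgeR adjusted p = 0.0446), with summed CPM of 25.3 to 26.8 and 34.4 to 35.5. DMC1 alone had means of 18.9 CPM in Col-0 and 26.7 CPM in the mutant, so that sum mainly follows DMC1. The meiotic genes ZYP1A, SYN1, SWI1, SPO11-1 and SDS had log2 fold changes of 0.21, 0.12, 0.06, -0.00 and -0.05 and did not pass. The part of these tissues in the levels of the mitotic genes was not tested.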

How the data were processed

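RNA-seq of polyadenylated RNA was examined in 6 samples. The authors deposited 1 table of unnormalised read counts per gene and sample, with exon coordinates and summed exon length. Reads were aligned with STAR to TAIR10, per the submitters' processing notes. How reads were counted, with which strand setting and treatment of multiple alignments, is not given in the sources used here, so reads of overlapping genes cannot be told apart. All 33489 identifiers match locus tags of TAIR10.1, and 33309 have the same start and end there. Genes were kept by filterByExpr (21182), scaled by TMM and tested with edgeR 4.0.16 in R 4.3.3 by the quasi-likelihood F test, two-sided, with genotype as the only term and Benjamini-Hochberg adjustment. The script was tested on simulated counts with known changes. Standard errors were obtained from the fold change and F. TPM used counts and exon length, without TMM. Copies of at least 90% identity and 50 bases were sought with BLAST 2.17.0. A single count equalled 0.0262 to 0.0328 CPM. The approximate intervals come from the standard errors.

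The 34 genes and the lists were chosen with earlier results of these data known. Values in every sample were given for up to 3 called genes per role and direction by smallest adjusted p and for the gene of highest TPM per role. From other lists up to 3 called genes per direction by smallest p were named, with a few further members named after their values were seen. Alternatives were RLE factors, library totals, DESeq2 1.42.0, other filters on low counts, a replicate block, a fold of at least 1.2, and leaving out each library. Within genotypes the mean chi-square statistic of pairs of libraries was 1.55 to 1.92 per gene, so no pair of libraries agreed within sampling noise. The scatter beyond that noise was small, with a common coefficient of variation of 1.99% in the edgeR fit. It does not show that the samples of a genotype were separate cultures.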

Additional observations from a re-analysis of the deposited data

How the results depend on the processing

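Of the 24 called mitotic genes, 14 kept their call under each of 12 alternative fits, not counting the fold of at least 1.2: the CYCB1 genes other than CYCB1;2, CYCA1;1, CYCA2;1, CYCA2;2, the 4 kinase genes, CKS2, AUR1, MAD2 and ESP. No called gene changed sign. The 10 others lost their call under at least 1 alternative, and 3 uncalled genes passed under at least 1: CYCB2;1 with library totals alone, CYCB3;1 also without mutant replicate C (0.19), and MAP65-3 without Col-0 replicate B (-0.14). The number higher was 19, and 15 to 19 when 1 library was left out. It was 14 with DESeq2 and 11 with a fold of at least 1.2. The number lower was 5, and 2 to 6 when 1 library was left out, with 3 without Col-0 replicate A and 2 without mutant replicate B. It was 0 with library totals alone and 0 with a fold of at least 1.2. With library totals alone the median of the mitotic genes was 0.24, and 2717 genes were lower overall. At a fold of at least 1.2, 2519 genes were higher and 1496 lower overall. The TMM factors were 0.976, 0.980 and 0.978 in Col-0 and 1.024, 1.024 and 1.019 in the mutant. Library totals alone leave these factors out, which raises the fold changes, mutant over Col-0. Why the factors differed was not tested, nor was the cause of the shifts when 1 library was left out. The labels do not say whether the replicate letters pair the samples. Deviations of same-lettered samples correlated at -0.01, 0.07 and 0.02, so little shared effect of a letter was seen, which cannot show that the samples were unpaired. With the replicate block 19 mitotic genes were higher and 5 lower. With 50 bases after the start added to the window, AACGG was found before 70.6% of the mitotic genes and 24.7% of all. The sums of CYCB1;2 with CYCB1;5 and of the CDC20 genes, and the SOG1 motif, were chosen after seeing the data. Depth limits CYCA1;2, with 149 counts in Col-0, and CYCA2;1, with 145.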
